A study of Mus musculus with 5 samples.

Results

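CXC chemokines are small secreted proteins that guide leukocytes, and 9 of their genes were followed here in tibialis anterior muscle, at the front of the lower leg: Cxcl1, Cxcl2, Cxcl5, Cxcl9, Cxcl10, Cxcl12, Cxcl13, Cxcl14 and Cxcl16. They are 9 of the 55357 genes in the deposited matrices and were taken by symbol, having been chosen by their UMI counts in these libraries, namely their levels by cell gate and their change in frail animals. The animals were female C57BL/6 mice aged 26 months, and the labels name no transgene or treatment. Of the 5 mice, 2 were frail, with an index of at least 0.18 on a list of 31 health deficits, and 3 with an index under 0.18 were the controls. Each mouse gave 1 droplet library (10x Genomics 3′ kit version 4), in which each RNA molecule carries a unique molecular identifier (UMI) and each droplet a barcode. Barcodes are called cells below, although the series text speaks of digested tissue and the extraction protocol of sorted nuclei, a difference that no source here resolves. The series title concerns the stress cytokine GDF15, its receptor GFRAL and sarcopenia, the loss of muscle with age.

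As background, chemokines bind receptors on leukocytes that turn a gradient into directed movement. Cxcl1, Cxcl2 and Cxcl5 act on Cxcr2 and attract neutrophils, and their genes respond to the transcription factor NF-κB after signals such as IL-1 or TNF. Cxcl9 and Cxcl10 are induced by interferons and attract activated T cells through Cxcr3. Cxcl12 binds Cxcr4, is made by stromal and endothelial cells in most tissues, and is taken up by the scavenger receptor Ackr3. Cxcl13 attracts B cells through Cxcr5. Cxcl14 is made by resting stroma and epithelium, and its receptor is less settled. Cxcl16 is made as a membrane protein, binds Cxcr6 and can be shed by the protease Adam10.

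In the GENCODE vM21 annotation of the mouse build GRCm38, 6 of the genes lie on chromosome 5. Cxcl5 (90759360 to 90761624), Cxcl1 (90891241 to 90893115), Cxcl2 (90903871 to 90905938) and Cxcl13 (95956951 to 95961068) are on its plus strand. Cxcl9 (92321347 to 92328079) and Cxcl10 (92346638 to 92348889) are neighbours on the minus strand. Cxcl12 is on chromosome 6 (117168535 to 117181367, plus strand), Cxcl14 on chromosome 13 (56288643 to 56296551, minus strand) and Cxcl16 on chromosome 11 (70453983 to 70459984, minus strand). Cxcl10 lies whole within Art3, which is read from the opposite strand, and 552 bases of Cxcl16 overlap Zmynd15 on the opposite strand. Whether reads were counted by strand is not given in the sources used here, so a share of these 2 genes' UMIs that came from the partner gene cannot be told apart. Of the 50-base words in the Cxcl2 transcripts, 5.84% also occur in its near copy Cxcl3, so part of the reads could be ambiguous. Cxcl3 itself had 27 to 96 UMIs per library in all kept cells and Cxcl2 8456 to 15055.

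The 250 bases before the RefSeq start site are shown for Cxcl1 and Cxcl2, which share a κB-type word, and for Cxcl9 and Cxcl10, the interferon-induced neighbours, because these genes carry the comparisons of frail and control animals below. The sequences are from RefSeq (GRCm38.p6), whose table matched 7 of the 9 genes; Cxcl5 and Cxcl16 had no entry. They read 5′ to 3′ on the gene's own strand. Capitals mark every match, on either strand, to GGGNNNNNCC, a loose form of the κB site, or to GAAANNGAAA, the core of the interferon-stimulated response element.
Cxcl1, chr5:90890995-90891244, plus strand: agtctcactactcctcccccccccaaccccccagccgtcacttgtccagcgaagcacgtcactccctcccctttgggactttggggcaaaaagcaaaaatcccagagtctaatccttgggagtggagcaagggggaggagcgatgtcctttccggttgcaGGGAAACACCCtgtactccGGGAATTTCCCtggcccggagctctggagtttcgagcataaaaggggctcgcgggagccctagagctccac
Cxcl2, chr5:90903649-90903898, plus strand: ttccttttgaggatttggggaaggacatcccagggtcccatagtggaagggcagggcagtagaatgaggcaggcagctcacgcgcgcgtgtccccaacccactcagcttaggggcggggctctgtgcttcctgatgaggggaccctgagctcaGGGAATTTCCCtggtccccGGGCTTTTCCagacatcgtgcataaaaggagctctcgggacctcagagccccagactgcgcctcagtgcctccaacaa
Cxcl9, chr5:92328080-92328329, minus strand: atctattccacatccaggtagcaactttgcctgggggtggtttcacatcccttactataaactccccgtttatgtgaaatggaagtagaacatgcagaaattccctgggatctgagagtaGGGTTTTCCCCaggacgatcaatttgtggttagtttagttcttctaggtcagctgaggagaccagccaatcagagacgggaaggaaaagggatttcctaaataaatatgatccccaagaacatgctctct
Cxcl10, chr5:92348890-92349139, minus strand: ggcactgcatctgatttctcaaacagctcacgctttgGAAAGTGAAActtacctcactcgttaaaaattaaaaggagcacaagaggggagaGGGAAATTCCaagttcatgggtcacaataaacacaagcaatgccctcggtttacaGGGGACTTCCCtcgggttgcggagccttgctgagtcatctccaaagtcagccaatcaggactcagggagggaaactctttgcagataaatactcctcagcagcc

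Cxcl1 and Cxcl2 both held the word GGGAATTTCC, a special case of the loose form, at 71 to 62 and at 97 to 88 bases before the start. Of the 32851 promoters in that table, 28 (0.0852%) held this word on either strand within the same length. The word was picked because both of these promoters hold it, so its share is a description and no test. The loose form GGGNNNNNCC is common: 45.8% of the promoters held it, as did 6 of the 7 matched chemokine promoters. GAAANNGAAA occurred in 2.98% of the promoters, and among the chemokines in Cxcl10 (213 to 204 bases before the start) and Cxcl14. These matches describe letters, and no binding was measured here.

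The libraries held 68170531 to 90942121 UMIs in 9791 to 13303 barcodes. Barcodes needed at least 200 genes and no more than 10% of UMIs from mitochondrial genes, which left 8650 to 12088 per library; the mitochondrial limit took out 17.2% of frail 1 and 7.49 to 11.2% of the others. A cell entered a gate when it had at least 2 UMIs of 1 gate gene and 0 of the other 4: Cdh5 for endothelium, Pdgfra for fibro-adipogenic cells, Rgs5 for pericytes and smooth muscle, C1qa for macrophages and Pax7 for satellite cells, the muscle stem cells. The gates held 6388, 7344, 2546, 1138 and 352 cells in that order, 26.2 to 43.1% of the kept cells of a library. Any 2 libraries shared 27 to 49 barcode sequences. Marker genes not used for gating stood highest in their own gate in every library, for example 5499 to 8684 CPM (UMIs of a gene scaled to a common total) for 7 endothelial markers in Cdh5-gated cells, 16412 to 26721 for 8 macrophage markers in C1qa-gated cells and 3924 to 4586 for 7 satellite markers in Pax7-gated cells. Control 3 stood apart by 2233 cells of no gate with at least 3 of 7 keratinocyte markers, against 0 to 2 in the other libraries. Ungated cells with at least 3 of 6 myofibre markers numbered 89 and 207 in the frail and 1787, 5591 and 1750 in the controls. Gated cells with these markers were not counted.

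**Figure D1:**
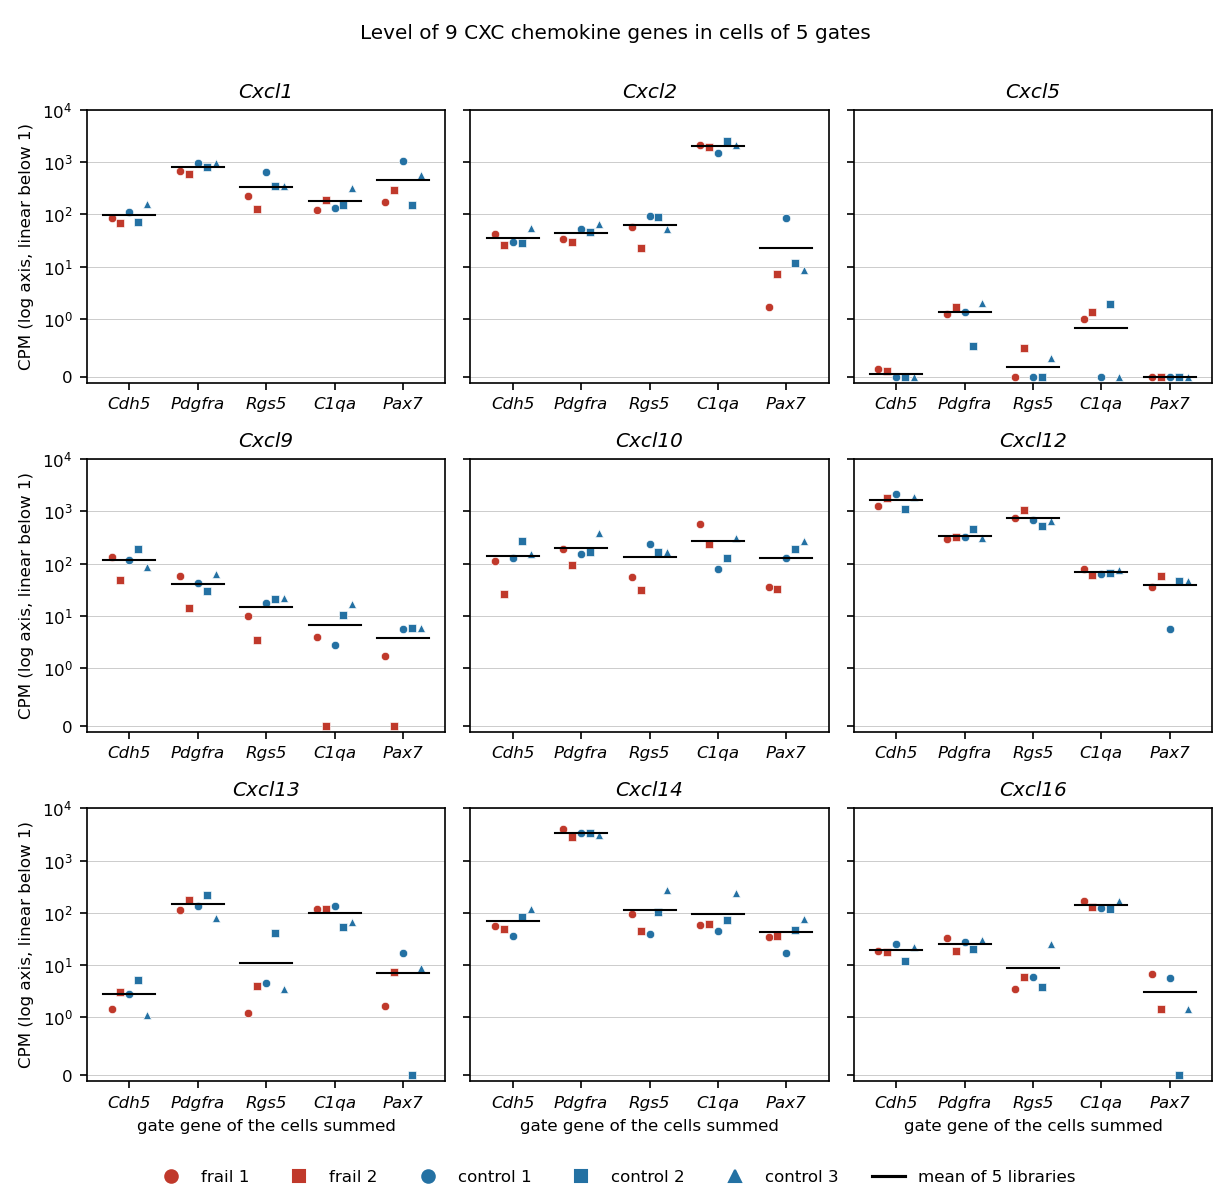
Level of each of the 9 genes (CPM, symmetric log axis that is linear below 1) in cells of the 5 gates; each symbol is 1 library and each bar the mean of 5 libraries. Cxcl14 stands highest in Pdgfra-gated, Cxcl12 in Cdh5-gated and Cxcl2 and Cxcl16 in C1qa-gated cells in all 5 libraries, while the gates overlap for Cxcl10.

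Among the neutrophil attractants, Cxcl1 and Cxcl2 were found in different cells. The gates hold only part of the molecules: for the 8 genes other than Cxcl5, 47.4 to 80.8% of a library's UMIs were in kept cells of no gate. Levels by gate are descriptions with no test, because the genes and gates were chosen for these patterns; values run frail 1, frail 2, control 1, control 2, control 3, in plain CPM. Cxcl1 stood at 686, 592, 971, 817 and 986 CPM in Pdgfra-gated cells (mean 810.3 ± 173, SD, n = 5). The order below was Pax7-gated (450.2 ± 381), Rgs5-gated (342 ± 199.7), C1qa-gated (181 ± 82.3) and Cdh5-gated cells (98.5 ± 35.9), and each pair of neighbours overlapped in range. Within libraries the upper gate of each pair, from the Pdgfra gate down, stood higher in 4, 3, 4 and 5 of the 5. The wide spread in Pax7-gated cells was set by control 1, at 1064 CPM from 27 cells. At least 1 Cxcl1 UMI was present in 68.1 to 83.95% of Pdgfra-gated and 15.5 to 31.3% of Cdh5-gated cells, whose median depths were 7328 to 8683 and 3422 to 4267 UMIs. After thinning each cell to 2000 UMIs these shares were 44.8 to 63.4% and 8.88 to 15.6%.

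Among the 5 gates, Cxcl2 was highest in the macrophage gate. C1qa-gated cells held 2113, 1937, 1469.9, 2495 and 2139 CPM (mean 2031 ± 373, SD, n = 5), 32.3 times the Rgs5-gated cells (62.8 ± 28.7). The C1qa gate overlapped no other gate in range. A Cxcl2 UMI was present in 34.8 to 51.2% of C1qa-gated and 4.91 to 10.8% of Cdh5-gated cells. Neutrophils have no gate of their own. Cells of no gate with at least 3 of 5 neutrophil markers numbered 16 to 65 per library. They stood at 3909, 2735, 1735, 494 and 2030.0 CPM. These values lay above the C1qa gate in both frail libraries and control 1 and below it in the other 2. In frail 1 these cells held 18.4% of all Cxcl2 UMIs, and 0.418 to 2.52% in the other libraries. Cxcl5 was close to absent, with 29 to 102 UMIs per library in all kept cells. In Pdgfra-gated cells, its highest gate, it stood at 0.530 to 1.97 CPM, and 83 of those 88 UMIs were in the Smoc2 subset described below.

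The Cxcr3 ligands differed in how widely they were found. Cxcl9 stood at 134, 49.6, 116, 190.0 and 86.8 CPM in Cdh5-gated cells (mean 115 ± 52.6, SD, n = 5). It stood at 41.1 ± 19.8 in Pdgfra-gated, 14.8 ± 7.93 in Rgs5-gated, 6.74 ± 6.74 in C1qa-gated and 3.79 ± 2.76 in Pax7-gated cells. The endothelial value exceeded the Pdgfra value in all 5 libraries although the ranges overlapped. Cells of no gate with at least 3 dendritic cell markers, 6 to 14 per library, stood at 119.6, 407, 151, 132 and 163 CPM. That was above the Cdh5 gate in frail 2, control 1 and control 3. Cdh5-gated cells held 6.64 to 29.2% of the Cxcl9 UMIs of a library and Pdgfra-gated cells 4.25 to 22.8%. Cxcl10 had no such order: it stood at 267 ± 196 CPM in C1qa-gated, 198 ± 110.4 in Pdgfra-gated, 137 ± 86.98 in Cdh5-gated, 133 ± 87.5 in Rgs5-gated and 130.2 ± 100.5 in Pax7-gated cells. Every pair of neighbours overlapped, and the libraries spread widely within a gate, for example 578, 243, 78.3, 127 and 311 CPM in C1qa-gated cells.

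Among the 5 gates, Cxcl12 was highest in the endothelial gate, as Cxcl9 was by its mean. Cdh5-gated cells held 1298, 1789, 2198, 1126 and 1887 CPM (mean 1659 ± 439.9, SD, n = 5), followed by Rgs5-gated (737 ± 208), Pdgfra-gated (342 ± 65.6), C1qa-gated (68.96 ± 7.29) and Pax7-gated cells (38.5 ± 19.96). No neighbours in this order overlapped in range. Of Cdh5-gated cells, 87.1 to 94.6% had a Cxcl12 UMI, against 3.70 to 31.9% of Pax7-gated cells.

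UMIs of Cxcl13, the B cell attractant, were found in few cells. It stood at 115, 176, 137, 220.3 and 78.5 CPM in Pdgfra-gated cells (mean 145 ± 54.8, SD, n = 5) and at 98.8 ± 35.3 in C1qa-gated cells. These 2 gates overlapped each other and lay above the other 3, whose highest library stood at 41.5 CPM. A Cxcl13 UMI was present in 5.51 to 13.4% of Pdgfra-gated and 12.02 to 21.4% of C1qa-gated cells, against 0.528 to 2.20% of Cdh5-gated cells, the gate set beside them for free RNA. Median depths in these gates were 7328 to 8683, 6002 to 8152 and 3422 to 4267 UMIs. After thinning to 2000 UMIs per cell the shares were 3.14 to 6.88%, 5 to 13.8% and 0.157 to 1.06%. Which of these cells make Cxcl13 was not tested.

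Cxcl14 marked the fibro-adipogenic gate. It stood at 3964, 2823, 3404, 3414 and 3168 CPM there (mean 3355 ± 417, SD, n = 5), 29.98 times the next gate (Rgs5, 112 ± 95.5) and with no overlap. Outside the Pdgfra gate it was highest in control 3 in all 4 gates, for example 275 CPM in Rgs5-gated cells against 39.3 to 103 in the other libraries. Cxcl16, the transmembrane chemokine, stood at 172, 131, 123, 121 and 169 CPM in C1qa-gated cells (mean 143 ± 25.03, SD, n = 5), 5.54 times the Pdgfra-gated cells (25.8 ± 6.33) and with no overlap. Cdh5-gated cells followed at 19.02 ± 5.01 CPM, and Rgs5- and Pax7-gated cells at 8.78 ± 9.03 and 3.05 ± 2.94. Ungated cells with at least 3 dendritic cell markers, 6 to 14 per library, stood at 76.1, 198, 168, 272 and 103 CPM. That was above the C1qa gate in frail 2, control 1 and control 2 and below it in frail 1 and control 3. By number of molecules the C1qa gate held 9.30 to 17.99% of the Cxcl16 UMIs of a library and the larger Pdgfra gate 11.3 to 25.03%.

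**Figure D2:**
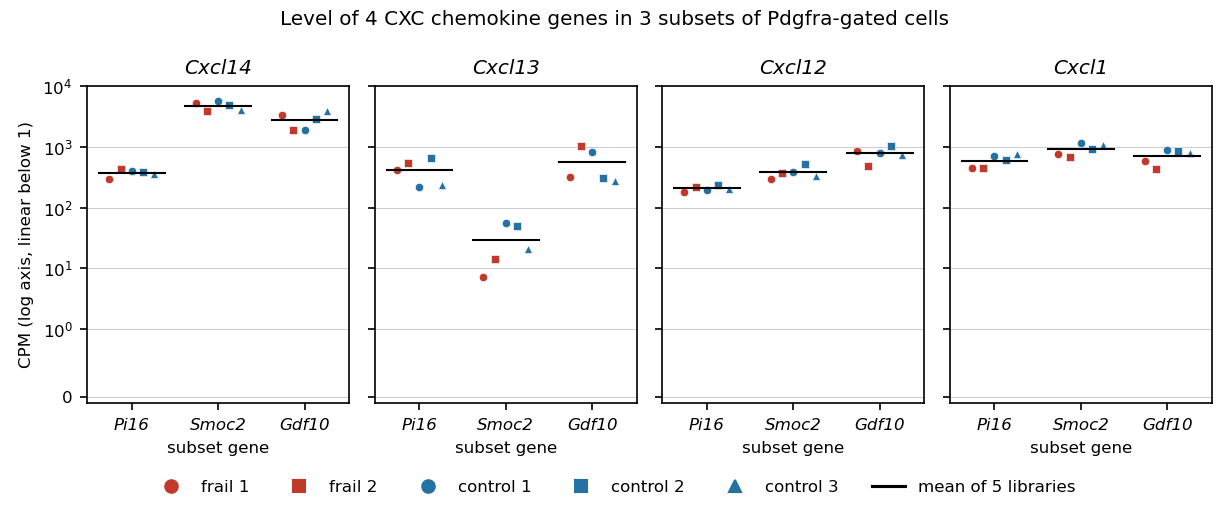
Level of Cxcl14, Cxcl13, Cxcl12 and Cxcl1 (CPM, symmetric log axis that is linear below 1) in the Pi16, Smoc2 and Gdf10 subsets of Pdgfra-gated cells; each symbol is 1 library and each bar the mean of 5. Cxcl14 is lowest in the Pi16 subset (371 CPM on average) and Cxcl13 lowest in the Smoc2 subset (29.2), while Cxcl1 overlaps in all 3.

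Within the Pdgfra gate, Cxcl13 and Cxcl14 sat in different subsets. A cell belonged to the Pi16, Smoc2 or Gdf10 subset when that gene had at least 2 UMIs and more than each of the other two, which gave 1595, 5181 and 169 cells. Cxcl14 stood at 5228, 3865, 5615, 4797 and 4088 CPM in the Smoc2 subset, 2772 ± 890.1 in the Gdf10 subset and 371 ± 52.4 in the Pi16 subset (mean ± SD, n = 5), and the Pi16 subset overlapped neither of the others. Cxcl13 stood at 411, 540.2, 217, 642 and 239 CPM in the Pi16 subset and 7.34, 14.4, 54.7, 48.8 and 20.7 in the Smoc2 subset, again without overlap. In the Gdf10 subset Cxcl13 stood at 551 ± 352 CPM, but a single cell held 30.1 to 81.6% of those UMIs. Cxcl12 was highest in the Gdf10 subset (781 ± 198 CPM), before the Smoc2 (379 ± 81.5) and Pi16 subsets (206 ± 21.8). Cxcl16 stood at 32.6 ± 8.0 CPM in the Smoc2 and 8.22 ± 1.16 in the Pi16 subset, which did not overlap, and Cxcl9 at 51.6 ± 23.9 and 21.3 ± 11.3. Cxcl1 overlapped in range between all 3, at 921 ± 205, 709 ± 189 and 591 ± 146 CPM in the Smoc2, Gdf10 and Pi16 subsets. Within libraries the Smoc2 subset stood above the Gdf10 subset in all 5, and the Gdf10 above the Pi16 subset in 4. Adventitial markers that the rule did not use (Cd55, Sema3c, Dpp4, Anxa3, Ly6c1 and Efhd1) summed to 3754 to 5165 CPM in the Pi16 subset and 450.1 to 1066 in the other subsets. In Cdh5-gated cells the same list summed to 2979, 4376, 4436, 4918 and 2799 CPM, with Ly6c1 alone at a mean of 3321. The sum thus tells the subsets apart and does not mark adventitial cells outside the Pdgfra gate.

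**Figure D3:**
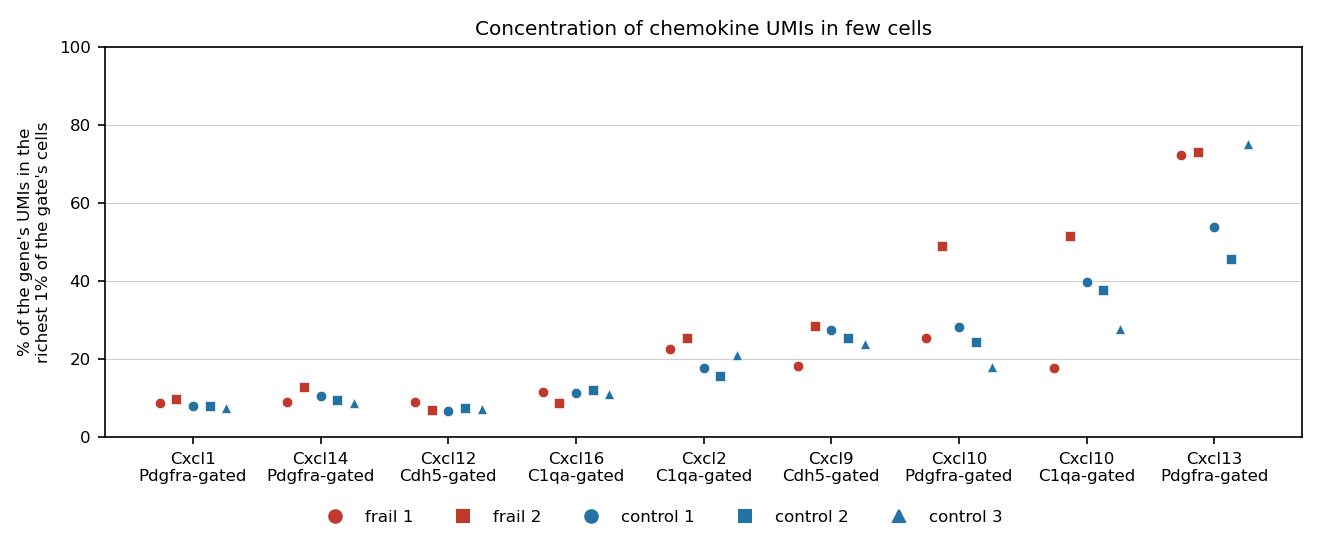
Share of a gene's UMIs held by the richest 1% of the cells of a gate (percent, linear axis from 0), 1 symbol per library, for the gate or gates in which each gene is highest. Cxcl1, Cxcl12, Cxcl14 and Cxcl16 lie between 6.70% and 12.96%, and Cxcl13 in Pdgfra-gated cells between 45.6% and 75.2%.

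Some of the genes were carried by many cells and others by few, as the plot of concentration shows. For Cxcl1 and Cxcl14 in Pdgfra-gated, Cxcl12 in Cdh5-gated and Cxcl16 in C1qa-gated cells the richest 1% of cells held 6.70% to 12.96% of the UMIs. The share was 15.6 to 25.5% for Cxcl2 in C1qa-gated and 18.3 to 28.6% for Cxcl9 in Cdh5-gated cells. It was 17.98 to 48.98% for Cxcl10 in Pdgfra-gated, 17.7 to 51.5% for Cxcl10 in C1qa-gated and 45.6 to 75.2% for Cxcl13 in Pdgfra-gated cells. A library total of Cxcl10 or Cxcl13 can therefore rest on a small number of cells.

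The genes closest in pattern were found by Pearson correlation of log2(CPM + 1) over 25 sums, the 5 gates in 5 libraries, among 9027 genes with a mean of at least 10 CPM. Sums of a gate share their cell type and sums of a library their preparation, so the values are descriptions. Cxcl14 ran with Smoc2 (0.98), Dcn (0.97) and Gsn (0.97). Cxcl12 ran with Tm4sf1 (0.98), Apbb2 (0.95) and Lmo1 (0.94), and Cxcl9 with Ly6a (0.91), Iigp1 (0.89) and Ly6c1 (0.89), of which Iigp1 is an interferon-induced GTPase. Cxcl2 ran with C3ar1 (0.95), Pirb (0.95) and Tmem37 (0.95), of which C3ar1 is a complement receptor, and Cxcl16 with Kctd12 (0.94), Myo9b (0.93) and Eps15 (0.93). Cxcl13 ran with Ang (0.94), Pmp22 (0.93) and Emilin2 (0.91), and Cxcl1 with Loxl1 (0.89), Antxr1 (0.85) and Col5a1 (0.85), of which Col5a1 is a collagen. Cxcl10 ran less closely with any gene; its nearest were Irf1 (0.73), Morc2a (0.66) and Rnf19b (0.64), and Irf1 is an interferon-induced transcription factor. For Cxcl5 the nearest, Tbc1d2b (0.79), Tgfbr2 (0.77) and Sh3pxd2b (0.77), rest on few UMIs.

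Of the receptors, 3 were well detected in the gates. Ackr3, the scavenger of Cxcl12, stood at 191 to 328 CPM in Pdgfra-gated, 73.8 to 188 in Cdh5-gated and 62.2 to 104 in Pax7-gated cells. Cxcr4, the signalling receptor of Cxcl12, stood at 71.5 to 184 CPM in C1qa-gated, 30.1 to 110.2 in Pax7-gated and 8.45 to 17.6 in Cdh5-gated cells. Ackr1, a decoy receptor that binds several inflammatory chemokines, stood at 31.8 to 53.1 CPM in Pdgfra-gated and 16.2 to 27.1 in Cdh5-gated cells. In all kept cells Cxcr2 stood at 0.874 to 2.90 CPM, Cxcr3 at 0.518 to 1.13, Cxcr5 at 0.0454 to 0.415 and Cxcr6 at 0.828 to 1.75. Of the other CXC chemokine genes, Pf4 (platelet factor 4) stood at 3079.8 to 3981 CPM in C1qa-gated cells. Cxcl11, the third Cxcr3 ligand, had 93 to 346 UMIs per library in all kept cells, and Cxcl15 had 0.

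Frail and control animals were compared on UMI sums per library with edgeR's quasi-likelihood test over all genes, with Benjamini-Hochberg adjustment at 0.05. CPM in these comparisons are scaled by TMM factors, and log2 changes are frail over control. The 9 genes were chosen in part by these changes, so their values here are a description: the adjusted p runs over all genes tested and is no independent test of the 9. In all kept cells none of them passed. Cxcl1 stood at 332 and 277 CPM in frail animals and 486, 414 and 549 in controls (log2 change −0.67, SE 0.20, adjusted p 0.687 by edgeR). Cxcl2 stood at 128 and 139 CPM in frail animals and 188, 225 and 153 in controls (log2 change −0.50, SE 0.21, adjusted p 0.891 by edgeR). For both genes each frail library was below every control, and the other 7 overlapped. That arrangement held for 10.5% of the 19989 genes tested. In a sum over all cells, fewer cells of a type and less RNA per cell cannot be told apart. Without control 3, the library with keratinocyte markers, the change of Cxcl1 was log2 −0.56 (adjusted p 0.435 by edgeR).

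**Figure D4:**
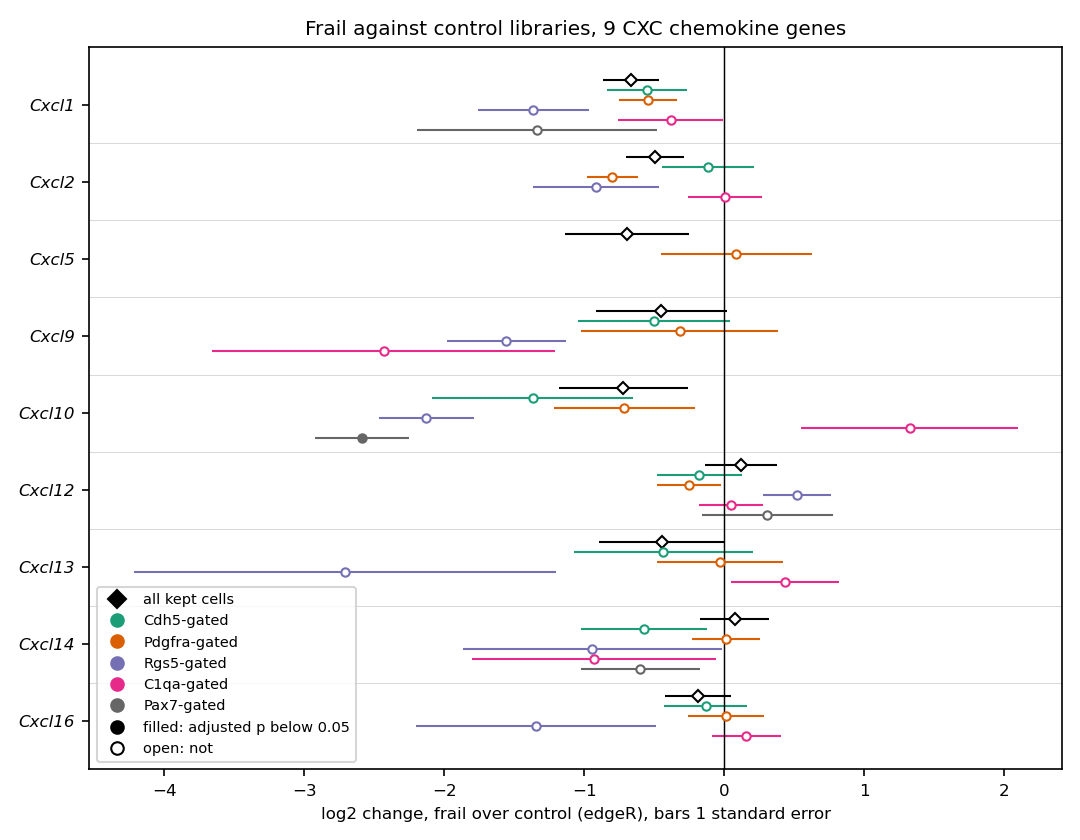
Log2 change, frail over control, with 1 standard error (edgeR, 2 against 3 libraries), for each gene in all kept cells and in each gate where it passed the low-count filter. The filled point is Cxcl10 in Pax7-gated cells (log2 −2.59), the single value with an adjusted p below 0.05; most other points lie left of 0 and are open.

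The signs of the changes are listed as a description from which nothing is read, because the genes were chosen partly by them. The sets also share cells, since all kept cells hold the gates and the Pdgfra gate holds the 3 subsets. A change below 0 was found for 7 of 9 in all kept cells, 8 of 8 in Cdh5-gated, 6 of 9 in Pdgfra-gated and 7 of 8 in Rgs5-gated cells. The counts were 3 of 8 in C1qa-gated and 3 of 4 in Pax7-gated cells, and 7 of 8, 8 of 9 and 3 of 6 in the Pi16, Smoc2 and Gdf10 subsets. Members not counted did not reach the low-count filter there. The shares of all genes tested that were below 0 were 49.7, 48.2, 49.2, 48.9, 50, 48.7, 48.9, 49.2 and 49.7% in the same order. The median change of the members was log2 −0.45 in all kept cells, −0.47 in Cdh5-gated, −0.25 in Pdgfra-gated, −1.35 in Rgs5-gated and 0.028 in C1qa-gated cells, where all genes had a median between 0.000031 and 0.0094.

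The single chemokine value below the threshold, among genes picked partly for their change, was Cxcl10 in Pax7-gated cells, the satellite cell gate. It stood at 35.4 and 34.1 CPM in frail animals and 134, 202 and 272 in controls. All 3 controls were above both frail libraries, an arrangement found for 8.84% of the 7149 genes tested, and Cxcl10 was 1 of the 4 genes below the threshold (log2 change −2.59, SE 0.34, adjusted p 0.00269 by edgeR). edgeR called 0.056% of genes lower in this gate and 0% higher; besides Cxcl10 these were Tcap, Pgam2 and Pvalb, genes of muscle fibres. The value rests on few molecules: 21 and 22 Cxcl10 UMIs from 98 and 94 frail cells, and 23, 32 and 185 UMIs from 27, 28 and 105 control cells. A single cell held 56.5% of them in control 1 and 56.2% in control 2. With the richest cell of each library removed, plain CPM were 20.4 and 20.8 in frail animals and 59.5, 85.4 and 241 in controls. The groups still did not overlap, and the call was lost (log2 −2.82, adjusted p 0.162 by edgeR). It was also lost when 1 UMI sufficed for a gate (adjusted p 0.0702) and when the gate gene needed only more than 80% of the gate UMIs (0.0745). Without control 3 the change was log2 −2.26 (adjusted p 0.0441 by edgeR).

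Other signals moved with the groups in the Pax7 gate. The 6 myofibre markers summed to 30.1 and 60.3 CPM in the frail and 373, 911 and 2931 in the control libraries, without overlap. The 6 immediate early genes, a sign of handling, summed to 36989 and 38707 CPM in the frail and 32123, 25448 and 31421 in the control libraries. Keratinocyte markers stood at 209 CPM in control 3 and 16.97 to 51.9 elsewhere, and T and NK cell markers at 158 CPM in control 2 and 0 to 1.47 elsewhere. The mitochondrial and ribosomal shares overlapped between the groups. The part of these signals in the Cxcl10 result was not tested.

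**Figure D5:**
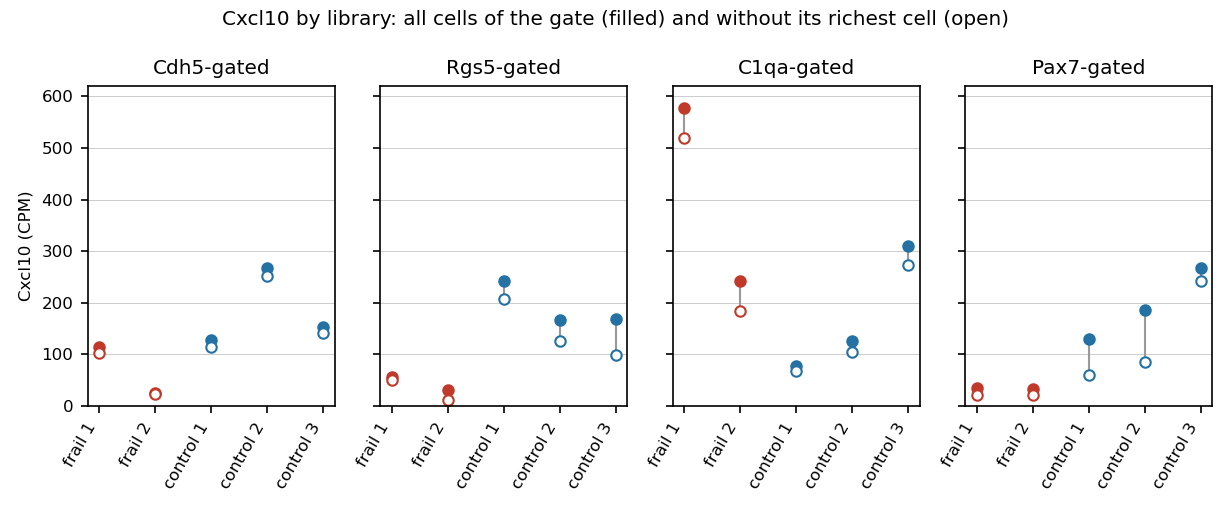
Cxcl10 in each library (CPM, linear axis from 0) in 4 gates, over all cells of the gate (filled) and without the 1 cell that has the most Cxcl10 UMIs (open); red are frail and blue control libraries. Over all cells both frail libraries lie below all controls in the Cdh5, Rgs5 and Pax7 gates, and not in the C1qa gate.

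In the other gates no chemokine passed, and Cxcl10 pointed in different directions. In Rgs5-gated cells it stood at 59.2 and 29.9 CPM in frail animals and 249.9, 167 and 170.1 in controls (log2 change −2.13, SE 0.34, adjusted p 0.210 by edgeR). The groups did not overlap there, an arrangement found for 11.3% of genes tested. DESeq2 called this value (adjusted p 3.99e-06), as did edgeR without control 3 (0.0440), without the low-count filter (4.11e-11) and with replicate number entered as a block (0.00312). A single cell held 60.3% of the UMIs in frail 2 and 42.1% in control 3, and without the richest cell of each library plain CPM were 50.7 and 12.4 in frail animals and 208, 126 and 98.4 in controls. The groups still did not overlap, at log2 −2.16 (SE 0.69, adjusted p 0.625 by edgeR). In Cdh5-gated cells Cxcl10 stood at 119 and 24.9 CPM in frail animals and 128, 278 and 149 in controls (log2 change −1.37, SE 0.72, adjusted p 1.00 by edgeR), without overlap, as did 7.66% of genes tested. In Pdgfra-gated cells the groups overlapped at 195 and 91.2 CPM in frail animals and 159, 170.5 and 372 in controls (log2 change −0.71, SE 0.50, adjusted p 0.998 by edgeR). In C1qa-gated cells the groups overlapped with a change above 0. CPM were 628 and 231 in frail animals and 80.9, 130.3 and 304 in controls (log2 change 1.32, SE 0.77, adjusted p 1.00 by edgeR). Of genes there, 9.67% had both frail libraries below all controls, and none of the chemokines did. Other signals separated the groups in this gate. Fibro-adipogenic markers summed to 1404 and 1407 CPM in the frail and 1811, 2984 and 3251 in the control libraries. Immediate early genes were higher in frail libraries, as given below. The part of these signals was not tested.

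The difference in the Cxcl10 change between gates was tested within libraries, against the Pdgfra gate. Cxcl10 was chosen partly by its change in these data, so the values are a description and no independent test. The difference was log2 2.06 (SE 0.23, adjusted p 0.139 by limma) for C1qa-gated cells. It was −1.65 (SE 0.35, adjusted p 0.998 by limma) for Pax7-gated, −1.47 (SE 0.43, adjusted p 0.888 by limma) for Rgs5-gated and −0.98 (SE 0.54, adjusted p 1.00 by limma) for Cdh5-gated cells. limma called 0 genes in each of the 4 tests, and an unadjusted p under 0.05 was found for 5.72, 3.2, 5.25 and 3.24% of genes with C1qa-, Pax7-, Rgs5- and Cdh5-gated cells; DESeq2 was not run on these differences. Over the alternatives run, the adjusted p of Cxcl10 in C1qa-gated cells ran from 0.0503 to 0.862.

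Cxcl1 stood below every control in both frail libraries in several sets of cells, and none of these values passed. In Pdgfra-gated cells, where it is highest, it stood at 698 and 574 CPM in frail animals and 996, 842 and 953 in controls (log2 change −0.55, SE 0.21, adjusted p 0.998 by edgeR). There, 8.9% of genes had both frail libraries below all controls. In Rgs5-gated cells Cxcl1 stood at 234 and 123 CPM in frail animals and 677, 358 and 347 in controls (log2 change −1.36, SE 0.40, adjusted p 0.495 by edgeR), and edgeR called it with replicate number entered as a block (log2 −1.53, adjusted p 0.0221) and without the low-count filter (0.000146). The frail libraries were below every control in both gates. The 3 fibro-adipogenic subsets, which share cells with the Pdgfra gate, had the same arrangement. In the Pi16 subset Cxcl1 stood at 460.5 and 429 CPM in frail animals and 722, 623 and 737 in controls (log2 change −0.64, SE 0.20, adjusted p 0.700 by edgeR). In the Smoc2 subset, which holds most of the gate, it stood at 781 and 653 CPM in frail animals and 1189, 956 and 1046 in controls (log2 change −0.57, SE 0.21, adjusted p 0.994 by edgeR). It stood at 671 and 501 CPM in frail animals and 951, 979.8 and 879 in controls (log2 change −0.67, SE 0.27, adjusted p 0.931 by edgeR) in the Gdf10 subset. That arrangement held for 9.02%, 8.9% and 10.4% of genes tested in these subsets. Other signals separated the groups in the Pdgfra gate too. Myofibre markers summed there to 35.9 and 120.5 CPM in the frail and 514, 2026 and 551 in the control libraries, and they were also below every control in both frail libraries in the other 4 gates and in the Pi16 and Smoc2 subsets. The mitochondrial share of UMIs was 2.92 and 3.05% in the frail and 2.32, 2.22 and 2.73% in the control libraries, and it lay above every control in the Pi16 and Smoc2 subsets as well. Mural markers summed to 604 and 509.8 CPM in the frail and 335, 337 and 448 CPM in the control libraries in this gate. In the Pi16 subset adventitial markers summed to 4115 and 3754 CPM in the frail and 5165, 4864 and 4413 CPM in the control libraries. The part of these signals in the Cxcl1, Cxcl2 and Cxcl13 values was not tested. Cxcl1 overlapped between the groups in Cdh5-, C1qa- and Pax7-gated cells.

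Cxcl2 had a change near 0 in its highest gate and stood below every control in Pdgfra-gated cells and in their Pi16 subset, where it did not pass. In C1qa-gated cells the groups overlapped at 2297 and 1841 CPM in frail animals and 1519, 2569 and 2093 in controls (log2 change 0.0060, SE 0.27, adjusted p 1.00 by edgeR). In Pdgfra-gated cells Cxcl2 stood at 34.3 and 28.2 CPM in frail animals and 53.03, 47.3 and 62.5 in controls (log2 change −0.80, SE 0.18, adjusted p 0.657 by edgeR), each frail library below every control, and edgeR called it without the low-count filter (adjusted p 0.0131). In the Pi16 subset it stood at 20.4 and 59.96 CPM in frail animals and 78.1, 93.7 and 95.1 in controls (log2 change −1.13, SE 0.42, adjusted p 1.00 by edgeR). Without the low-count filter that value was called (adjusted p 0.000300 by edgeR), and without frail 2 the change was log2 −2.12. Pf4, like Cxcl2 highest in C1qa-gated cells, changed by log2 −0.85 (SE 0.37) in Pdgfra-gated cells and −0.97 (SE 0.44) in the Pi16 subset. The groups overlapped for Pf4 in both. Macrophage markers in Pdgfra-gated cells overlapped too, at 65.6 and 166 CPM in the frail and 152, 227 and 97.7 in the control libraries. The part of macrophage or free RNA in these Cxcl2 values was not tested.

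Cxcl13 stood below every control in both frail libraries in the subset where it is rare, and the value did not pass. In the Smoc2 subset it stood at 7.42 and 14.0 CPM in frail animals and 55.98, 50.5 and 20.1 in controls (log2 change −1.96, SE 0.55, adjusted p 0.994 by edgeR), without overlap. DESeq2 called this value (adjusted p 0.00762), as did edgeR with replicate number entered as a block (5.78e-05) and without the low-count filter (0.00410). A single cell held 27.9 to 49.8% of its UMIs in each library, and without those cells plain CPM were 3.72 and 9.55 in frail animals and 38.03, 35.3 and 10.4 in controls (log2 −2.10, SE 0.81, adjusted p 0.994 by edgeR). In the Pi16 subset, where Cxcl13 is higher, the groups overlapped at 426 and 521 CPM in frail animals and 219, 672 and 233 in controls (log2 change 0.34, SE 0.57, adjusted p 1.00 by edgeR).

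Cxcl9 lay on the same side as Cxcl10 in the Rgs5 gate. It stood at 10.3 and 3.32 CPM in frail animals and 18.3, 21.5 and 21.8 in controls (log2 change −1.56, SE 0.42, adjusted p 0.420 by edgeR), from 25 and 7 UMIs in frail and 43, 50 and 67 in control libraries, without overlap. edgeR called it without the low-count filter (adjusted p 0.00577). In Cdh5-gated cells, its highest gate, the groups overlapped at 140.2 and 47.7 CPM in frail animals and 117, 198 and 84.0 in controls (log2 change −0.50, SE 0.54, adjusted p 1.00 by edgeR). Frail 2 was the lowest library for both Cxcl9 and Cxcl10 in Cdh5-, Pdgfra- and Rgs5-gated cells.

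Cxcl12, Cxcl14 and Cxcl16 overlapped between the groups in the gate where each is highest. Cxcl12 stood at 1354 and 1719.7 CPM in frail animals and 2219, 1171 and 1826 in controls (log2 change −0.18, SE 0.30, adjusted p 1.00 by edgeR) in Cdh5-gated cells. In Rgs5-gated cells it stood at 772 and 1043 CPM in frail animals and 709, 517 and 674 in controls (log2 change 0.52, SE 0.24, adjusted p 0.725 by edgeR), each frail library above every control, as for 11.4% of genes tested there. The sign turned with the gate at more than 80% of gate UMIs (log2 −0.12). Cxcl14 stood at 4036 and 2739 CPM in frail animals and 3492, 3516 and 3064 in controls (log2 change 0.013, SE 0.24, adjusted p 0.999 by edgeR) in Pdgfra-gated cells. Cxcl16 stood at 187 and 125 CPM in frail animals and 127, 124 and 165 in controls (log2 change 0.16, SE 0.24, adjusted p 1.00 by edgeR) in C1qa-gated cells. Cxcl5, on 4 to 34 UMIs per library in the Pdgfra gate, overlapped there at 1.24 and 1.62 CPM in frail animals and 1.37, 0.546 and 1.91 in controls (log2 change 0.085, SE 0.54, adjusted p 0.998 by edgeR).

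In the Rgs5 gate 3 of the 8 tested members had both frail libraries below all controls, as did 11.3% of all genes tested, and 1, Cxcl12, had both above, as did 11.4%. edgeR called 0.0255% of the 11755 genes lower there and 0.00851% higher. The lower ones were Cox8b and Pgam2, genes of muscle fibres, and Pi16, and the higher one was Aldh1l1. Myofibre markers in this gate summed to 135 and 189 CPM in the frail and 7914, 9835 and 2105 in the control libraries. Keratinocyte markers stood at 4070.2 CPM in control 3 and 27.7 to 35.04 elsewhere. Mural markers summed to 13449 and 12920 CPM in the frail and 14811, 11924 and 8258 in the control libraries, and immediate early genes to 14883 and 12517 CPM in the frail and 19325, 21568 and 16856 in the control libraries. The mitochondrial share of UMIs was 4.85 and 5.19% in the frail and 3.88, 3.67 and 4.11% in the control libraries, and the ribosomal share 7.19 and 6.52% in the frail and 9.17, 9.94 and 10.3% in the control libraries. Both separated the groups. Adventitial markers, at 477 and 363 CPM in the frail and 524, 614 and 608 in the control libraries, did so too. So did satellite markers, at 679 and 800 CPM in the frail and 1155, 1026 and 814 in the control libraries. The adventitial list is also high in Cdh5-gated cells, as given with the subsets. The part of these signals in the chemokine values of the Rgs5 gate was not tested.

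Few genes of any kind passed in these comparisons. edgeR called 0.00671% of genes higher in Pdgfra-gated cells, 0.0174% higher and 0.0174% lower in the Pi16 subset, 0.00719% higher in the Smoc2 subset, and 0 in all kept, Cdh5-gated and C1qa-gated cells and the Gdf10 subset. An unadjusted p under 0.05 was found for 5.6, 3.37, 4.57, 6.92, 3.86, 4.29, 4.63, 4.18 and 5.18% of genes in all kept, Cdh5-, Pdgfra-, Rgs5-, C1qa- and Pax7-gated cells and the Pi16, Smoc2 and Gdf10 subsets. DESeq2 called 319 genes in all kept, 55 in Cdh5-gated and 16 in C1qa-gated cells and 0 in the Gdf10 subset.

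Genes of the surrounding pathways were counted from 5 lists, and no list member passed in any of the 9 sets of cells. Of the 16 genes on the NF-κB list (signals, transcription factors, targets and mRNA decay factors), 12 of 14 tested in Pdgfra-gated cells had a change below 0, against 49.2% of all genes tested, with a median of log2 −0.31. Both frail libraries were below all controls for 6 of 14, against 8.9% of all genes. Tnfaip3, a feedback inhibitor of NF-κB, stood at 16.4 and 24.1 CPM in frail animals and 40.5, 47.3 and 52.2 in controls (log2 change −1.20, SE 0.21, adjusted p 0.381 by edgeR). Nfkbiz, an IκB family regulator, stood at 298 and 321 CPM in frail animals and 426, 513 and 556 in controls (log2 change −0.69, SE 0.20, adjusted p 0.828 by edgeR). The groups did not overlap for either gene. The count below 0 was 12 of 14 in Rgs5-gated (median log2 −0.41), 10 of 12 in Pax7-gated (−0.61) and 6 of 15 in C1qa-gated cells (0.054), where 48.9, 48.7 and 50% of all genes were below 0. It was 13 of 16 in all kept and 11 of 14 in Cdh5-gated cells, and 13 of 13, 12 of 14 and 5 of 10 in the Pi16, Smoc2 and Gdf10 subsets. Both frail libraries were below all controls for 7 of 14 in Rgs5-gated, 4 of 12 in Pax7-gated and 1 of 15 in C1qa-gated cells, against 11.3, 8.84 and 9.67% of all genes. The list was chosen with earlier results known, and nothing particular to it is read from these counts. In Rgs5-gated cells Nfkbiz stood at 129.5 and 169 CPM in frail animals and 393, 339 and 283 in controls (log2 change −1.18, SE 0.25, adjusted p 0.271 by edgeR). In Pax7-gated cells Tnfaip3 stood at 25.3 and 37.2 CPM in frail animals and 187, 107 and 73.4 in controls (log2 change −1.85, SE 0.40, adjusted p 0.148 by edgeR). Immediate early genes were lower in frail libraries in the Rgs5 gate and higher in the Pax7 gate, as given above. They were also higher in the C1qa gate, at 18601 and 18859 CPM in the frail and 12766, 16446 and 18497 in the control libraries. In the Smoc2 subset they were lower, at 22202 and 22062 CPM in the frail and 23593, 22866 and 23697 in the control libraries. The part of these genes was not tested.

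The interferon list had medians of both signs. The median was log2 0.24 over 15 tested genes in Cdh5-gated, −0.20 over 15 in Rgs5-gated and 0.38 over 16 in C1qa-gated cells. Counts below 0 were 4 of 15, 9 of 15 and 3 of 16 there, against 48.2, 48.9 and 50% of all genes. They were 3 of 16 in all kept and 7 of 11 in Pax7-gated cells, against 49.7 and 48.7%. In Rgs5-gated cells Irf1 stood at 228 and 134 CPM in frail animals and 423, 426 and 391 in controls (log2 change −1.19, SE 0.27, adjusted p 0.297 by edgeR). In Pax7-gated cells Irf1 stood at 299.8 and 229 CPM in frail animals and 688, 341 and 683 in controls (log2 change −1.12, SE 0.30, adjusted p 0.428 by edgeR). Irf7, another interferon regulatory factor, stood at 11.8 and 3.10 CPM in frail animals and 34.98, 82.03 and 26.4 in controls (log2 change −2.44, SE 0.63, adjusted p 0.362 by edgeR) in the same gate. The groups did not overlap for these 3 values. Both frail libraries were below all controls for 3 of 15 list genes in Rgs5-gated and 3 of 11 in Pax7-gated cells. Those shares were 11.3 and 8.84% over all genes. Ifnar2, on the same list, was above every control in both frail libraries in Rgs5-gated cells, as were 11.4% of genes. CPM were 53.0 and 68.9 in frail animals and 39.7, 35.6 and 35.4 in controls (log2 change 0.72, SE 0.21, adjusted p 0.460 by edgeR). In Cdh5-gated cells the interferon-induced GTPase Gbp4 overlapped at 512 and 81.2 CPM in frail animals and 149, 174 and 99.4 in controls (log2 change 1.07, SE 0.73, adjusted p 1.00 by edgeR), with frail 1 the highest library.

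Among receptors, Ackr3 stood at 36.8 and 43.7 CPM in frail animals and 104, 76.4 and 54.6 in controls (log2 change −0.96, SE 0.28, adjusted p 0.495 by edgeR) in Rgs5-gated cells, without overlap, as for 11.3% of genes tested. Both frail libraries were also below all controls in C1qa-gated cells (log2 −1.30, SE 0.40) and the Gdf10 subset, as for 9.67 and 10.4% of genes. Ackr3 overlapped in all kept, Pdgfra-, Cdh5- and Pax7-gated cells and in the Pi16 and Smoc2 subsets. Ackr1 stood at 32.4 and 31.2 CPM in frail animals and 54.5, 50.8 and 41.9 in controls (log2 change −0.62, SE 0.17, adjusted p 0.826 by edgeR) in Pdgfra-gated cells, without overlap, as for 8.9% of genes. It had the same arrangement in all kept and Rgs5-gated cells and the Pi16, Smoc2 and Gdf10 subsets. That held for 10.5, 11.3, 9.02, 8.9 and 10.4% of genes there. In Cdh5-gated cells Ackr1 overlapped. Cxcr4 overlapped in Pax7- and C1qa-gated cells. Of the proteases, Adam10, which sheds Cxcl16, overlapped in Pdgfra-gated cells at 32.3 and 41.3 CPM in frail animals and 47.96, 37.7 and 39.3 in controls (log2 change −0.18, SE 0.18, adjusted p 0.998 by edgeR). Mmp14 was above every control in both frail libraries there, as were 9.21% of genes. CPM were 282 and 381 in frail animals and 212, 169 and 273 in controls (log2 change 0.61, SE 0.24, adjusted p 0.998 by edgeR). Mmp14 had the same arrangement in the Pi16 and Smoc2 subsets, as did 9.35 and 8.99% of genes. Dpp4, which trims the amino end of several chemokines, was lower in frail libraries in Rgs5-gated cells, without overlap, as for 11.3% of genes tested. CPM were 8.69 and 10.4 in frail animals and 17.9, 22.3 and 30.2 in controls (log2 change −1.30, SE 0.32, adjusted p 0.335 by edgeR). Dpp4 is also an adventitial marker here, and the sum of those markers separated the groups in this gate, as given above. The part of that signal in the Dpp4 value was not tested.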

How the data were processed

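Single-cell 3′ RNA libraries of tibialis anterior muscle from 2 frail and 3 control mice were analysed, 1 library per mouse. The authors deposited raw UMI count matrices, which the file headers credit to Cell Ranger 7.0.0; GRCm38, bcl2fastq 5.01 and Seurat 4.1.2 are named in the submitters' processing notes. Which gene annotation and barcode filter were used is not given in the sources used here, and they differ on whether cells or nuclei were loaded. No cell annotation is used.

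Barcodes with at least 200 genes and at most 10% of UMIs from mitochondrial genes were kept, and gates and subsets were set as in the report. The 9 genes, the gates and all lists were chosen with earlier results of these data known. UMI counts were summed per library and set of cells with Python 3.11.15. Levels are CPM of the same sum, and the mean and SD run over the 5 libraries. Frail and control sums were compared with edgeR 4.0.16 (quasi-likelihood, TMM, filterByExpr, Benjamini-Hochberg adjustment over all genes tested, threshold 0.05) in R 4.3.3. Differences between gates used limma 3.58.1 on within-library differences of log2 CPM with a prior count of 2. DESeq2 1.42.0, no TMM, no low-count filter, a replicate block, looser gates, a mitochondrial limit of 5%, Scrublet doublet removal (scanpy 1.11.5; no doublets were removed otherwise) and leaving out each library were the alternatives. The edgeR step was tested on simulated data. List genes could be named when called or among the 4 with the largest change in a set of cells. Not all such genes are printed. Depth per library is given in the report, and sums of few cells are imprecise.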

Additional observations from a re-analysis of the deposited data

How the results depend on the processing

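With 2 frail and 3 control animals a single library or a few cells can move a call, and Cxcl10, Cxcl13 and Cxcl9 rest on few UMIs in the smaller gates. The number of genes called moved by more than 1.5 times under several alternatives; which genes were shared between settings, and the causes, were not tested. Sets of cells are named by their gate or subset gene. With DESeq2, the number of genes called was 319 (all kept cells), 55 (Cdh5), 48 (Pdgfra), 113 (Rgs5), 16 (C1qa), 12 (Pax7), 33 (Pi16) and 43 (Smoc2). Without the low-count filter, the number of genes called was 15 (all kept cells), 142 (Cdh5), 181 (Pdgfra), 271 (Rgs5), 111 (C1qa), 50 (Pax7), 109 (Pi16), 148 (Smoc2) and 10 (Gdf10). The log2 change turned sign for Cxcl2 in C1qa (−0.012). With 1 UMI sufficient for a gate, the number of genes called was 24 (Cdh5), 0 (Rgs5), 10 (Pax7) and 2 (Smoc2). The log2 change turned sign for Cxcl13 in Cdh5 (0.68), Cxcl5 in Pdgfra (−0.057) and Cxcl16 in Pdgfra (−0.043). With a gate at more than 80% of gate UMIs, the number of genes called was 14 (Cdh5), 11 (Pdgfra), 2 (Rgs5) and 2 (Smoc2). The log2 change turned sign for Cxcl2 in Cdh5 (0.33), Cxcl16 in Cdh5 (0.11), Cxcl16 in Pdgfra (−0.10), Cxcl12 in Rgs5 (−0.12), Cxcl14 in C1qa (0.35) and Cxcl14 in Pax7 (0.86). With a mitochondrial limit of 5%, the number of genes called was 0 (Rgs5) and 2 (Pax7). The log2 change turned sign for Cxcl12 in all kept cells (−0.0018), Cxcl2 in Cdh5 (0.056), Cxcl13 in Pdgfra (0.0044) and Cxcl12 in C1qa (−0.16). Without TMM the log2 change turned sign for Cxcl13 in Pdgfra (0.0077) and Cxcl2 in C1qa (−0.013). With Scrublet doublets removed the log2 change turned sign for Cxcl13 in Pdgfra (0.0021) and Cxcl12 in C1qa (−0.0063). The alternative without the richest cell was chosen after seeing the data; it and the looser gates ended the call of Cxcl10 in Pax7-gated cells, as given with that result. When 1 library was left out, the number of genes called ranged over 0 to 17 (Cdh5), 0 to 54 (Rgs5), 0 to 14 (C1qa), 2 to 65 (Pax7), 0 to 128 (Pi16), 1 to 3 (Smoc2), 0 to 21 (Gdf10), 0 to 1 (Cdh5 minus Pdgfra) and 0 to 7 (C1qa minus Pdgfra). The log2 change then turned sign within these ranges: Cxcl9 in all kept cells (−1.47 to 0.14), Cxcl12 in all kept cells (−0.067 to 0.35), Cxcl13 in all kept cells (−0.77 to 0.0063), Cxcl14 in all kept cells (−0.22 to 0.32), Cxcl2 in Cdh5 (−0.57 to 0.24), Cxcl9 in Cdh5 (−1.48 to 0.077), Cxcl12 in Cdh5 (−0.40 to 0.033), Cxcl13 in Cdh5 (−1.04 to 0.18), Cxcl16 in Cdh5 (−0.37 to 0.10), Cxcl5 in Pdgfra (−0.22 to 0.53), Cxcl9 in Pdgfra (−1.73 to 0.38), Cxcl13 in Pdgfra (−0.35 to 0.41), Cxcl14 in Pdgfra (−0.30 to 0.26), Cxcl16 in Pdgfra (−0.52 to 0.40), Cxcl14 in Rgs5 (−1.66 to 0.030), Cxcl1 in C1qa (−0.62 to 0.092), Cxcl2 in C1qa (−0.17 to 0.20), Cxcl12 in C1qa (−0.23 to 0.31), Cxcl14 in C1qa (−1.33 to 0.018), Cxcl16 in C1qa (−0.15 to 0.43), Cxcl12 in Pax7 (−0.14 to 0.80) and Cxcl14 in Pax7 (−0.89 to 0.14). When a group was left with 1 library by leaving out a frail one, its spread was assumed to be that of the controls.

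Replicate numbers 1 and 2 occur in both groups, and no label ties animals of the same number. The correlation of deviations from the group means between libraries of the same number was −0.0134 for number 1 and 0.166 for number 2 in all kept cells, and −0.0538 and 0.0811 in Pax7-gated cells. Frail 1 and control 3, of unlike number, gave 0.121 and 0.167. The deviations of 2 frail libraries mirror each other, so these correlations cannot decide whether the numbers pair the animals. For want of a label the main fit has no block. Control 3 adds nothing to the blocked difference, since it shares its number with no frail library. With replicate number entered as a block, the number of genes called was 366 (all kept cells), 2 (Cdh5), 156 (Pdgfra), 67 (Rgs5), 18 (C1qa), 17 (Pax7), 25 (Pi16), 93 (Smoc2) and 10 (Gdf10). The log2 change turned sign for Cxcl12 in all kept cells (−0.0056), Cxcl2 in Cdh5 (0.17), Cxcl16 in Cdh5 (0.0042), Cxcl14 in Pdgfra (−0.076), Cxcl14 in Rgs5 (0.056), Cxcl1 in C1qa (0.075), Cxcl14 in C1qa (0.044) and Cxcl14 in Pax7 (0.16). Cxcl10 in Pax7-gated cells stayed called with the block (adjusted p 0.0102 by edgeR), and the members called with it are named beside their results. The differences between gates were not run with DESeq2, the low-count filter or the block.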
